A study of Caenorhabditis elegans with 6 samples.

Results

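The genes described here are 10 components of cyclic nucleotide and G-protein signalling, pathways that act in sleep-like behaviour of the nematode Caenorhabditis elegans. A part in sleep is not established here for each gene. They were chosen by name: every probe set of the array annotated with a single gene symbol from the list egl-4, kin-1, kin-2, kin-29, acy-1, acy-4, pde-4, goa-1, egl-30 and crh-1 was taken. All 10 genes were found, on 23 probe sets, of 17118 genes and 22548 probe sets in all. Of the 23, 11 have identifiers ending in _at alone, and 12 end in _s_at or _x_at, which marks probes that can also match transcripts of other genes or of related sequence.

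Cyclic AMP is made by adenylyl cyclases, which the stimulatory G protein activates, and it frees the catalytic subunit of protein kinase A (PKA) from its regulatory subunit. Phosphodiesterases break the signal down, and PKA can pass it to the nucleus through the transcription factor CREB. In worms and flies higher cAMP signalling is known to favour wakefulness, whereas the cGMP-dependent kinase EGL-4 and the salt-inducible kinase relative KIN-29 are known from worm genetics to favour sleep. The Go and Gq alpha subunits act in opposite directions on transmitter release in worm motor neurons, with Go restraining it and Gq promoting it.

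Larvae of 2 stages of the wild-type strain N2 (Bristol) were compared, from hermaphrodite cultures fed the bacterial strain DA837 and kept at 20 °C after arrest as starved hatchlings. The lethargus group held 3 pools of larvae in L3 lethargus, the quiet phase of the molt, picked by hand at 37 hours after feeding because they neither moved nor ate. The L3 group held 3 pools of L3 larvae, picked at 32 hours while active. Each pool was 200 whole animals from 10 tubes of 20, so hours of growth, progress of the molt and activity all differ between the stages and cannot be told apart. In RNA from whole animals, fewer cells of a type and less RNA per cell cannot be told apart either, and genes used in a few neurons are read together with every other tissue that uses them.

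Of 22548 probe sets, 218 (0.967%) differed between lethargus and L3 at an adjusted p of 0.05 or less by limma. Array medians ran from 7.09 to 7.19 on the log2 scale. The array of L3 replicate 3 resembled lethargus more than its fellow arrays did, at 0.824 on a first principal component where the lethargus arrays lay between 19.5 and 39.1 and the other L3 arrays at -47.7 and -40.9. On the second component it lay at -41.9, against -10.2 to 26.1 for the lethargus arrays and 7.25 and 3.95 for the other L3 arrays. Results are therefore also given without that array. It was picked on these same values for its likeness to lethargus, so leaving it out can by itself widen the differences between stages. Mean RNA yield per pool, per the labels' protocols, was 19.7 ± 3.5 ng for lethargus and 29.1 ± 15.9 ng for L3.

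None of the 10 signalling genes was called different between lethargus and L3 by limma with adjustment over all probe sets. Of the 23 probe sets, 0 were called in either direction, beside 0.967% of all probe sets. Without L3 replicate 3, where 5.04% of all probe sets were called, the count of member probe sets called was again 0. It was also 0 under the other settings, where the share of all probe sets called was 0.94% after a second quantile normalization, 0.962% with a common median, 1.54% with dim probe sets left out, 1.16% with a variance trend, 2.19% with array weights and 0.262% with a replicate block. With another array left out that share was 0.333%, 0.386% or 0.39% (lethargus replicates 1, 2 and 3) or 0.399% (L3 replicates 1 and 2), and again 0 member probe sets were called. At an unadjusted p under 0.05 there were 3 of 23, 2 higher and 1 lower, which is 13% beside 10.6% of all probe sets (5.44% higher and 5.11% lower). The median log2 difference of the 23, lethargus minus L3, was 0.03, beside 0.02 over all probe sets, and the median size of a difference was 0.14, beside 0.13.

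The measurements also bound the size of change. For 21 of the 23 probe sets the 95% interval of the difference lay inside a log2 range of -1 to 1, so that it held no 2-fold change in either direction. The same held for 19906 of all 22548 probe sets, so the count is not particular to these genes. The exceptions among the members were 193593_s_at of egl-30, with an interval from -1.05 to -0.18, and 189423_s_at of crh-1, with one from 0.04 to 1.01. The largest difference among the members was 0.61 in size, while the smallest difference called anywhere on the array was 0.72. Standard errors (SE) of the member differences ran from 0.12 to 0.29. RMA values near background understate differences, and 2 member probe sets, 194143_x_at of kin-1 and 181128_at of crh-1, lay at or below the highest Bacillus subtilis control probe set of the array on all 6 arrays.

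**Figure D1:**
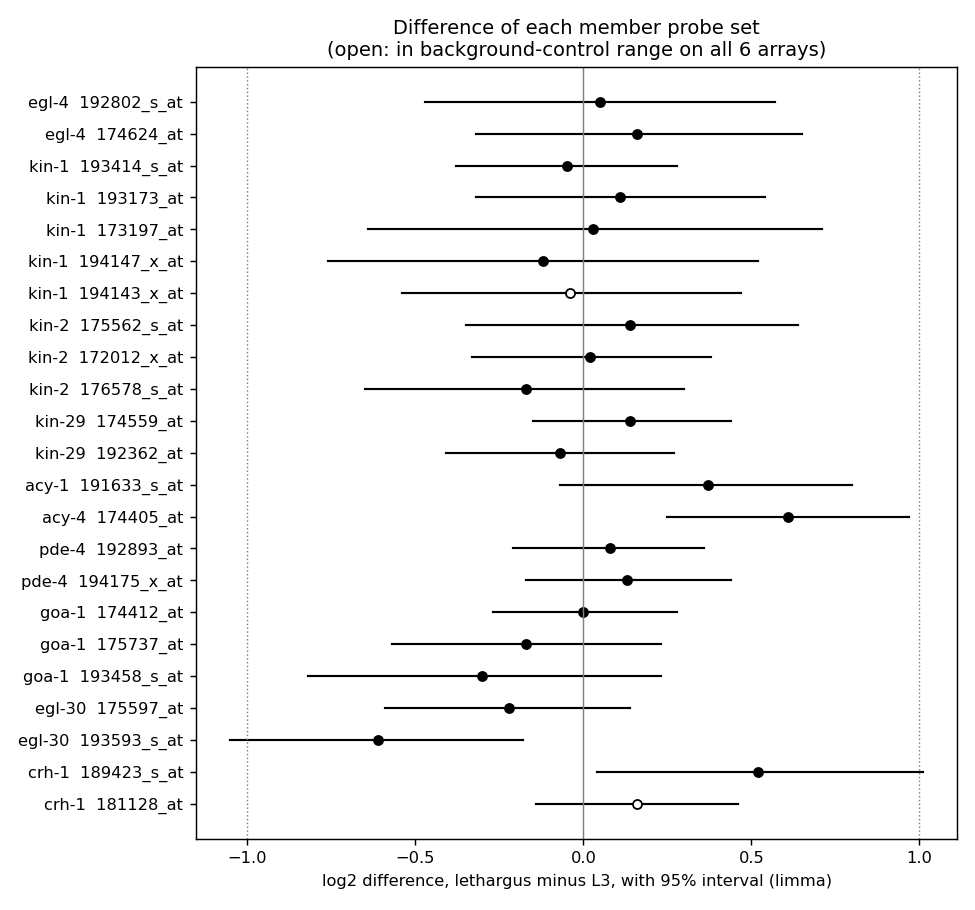
Log2 difference, lethargus minus L3, for each of the 23 probe sets of the 10 genes (rows), with the 95% interval from limma as a horizontal line. Dotted lines mark a 2-fold change in either direction, and open points are the 2 probe sets no brighter than the highest background control on any of the 6 arrays. The intervals of acy-4, 193593_s_at of egl-30 and 189423_s_at of crh-1 leave out 0 before adjustment for 22548 tests. Inside the dotted lines lie 21 of 23, beside 19906 of 22548 over all probe sets.

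Among the genes for the making and breakdown of cAMP and for PKA, the largest differences were those of the adenylyl cyclases. The single probe set of acy-4, an adenylyl cyclase known from work on the somatic gonad, where it acts in the sheath cells that control oocyte maturation, read 7.09, 6.66 and 6.80 on the lethargus arrays, against 6.31, 6.08 and 6.31 on the L3 arrays. Every lethargus array lay above every L3 array, with a gap of 0.34 between the groups. The mean was 6.85 ± 0.22 in lethargus and 6.23 ± 0.13 in L3 (SD, n = 3 each), a difference of 0.61 (SE 0.15, 95% interval 0.25 to 0.97), or 1.53-fold. That difference exceeded the spread of either stage but did not pass adjustment, with an unadjusted p of 0.00468 and an adjusted p of 0.155 from limma. The exact permutation test gave 0.1, the smallest p that 3 against 3 arrays allow. Its probe set is not marked as able to match other transcripts.

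With each array left out the acy-4 difference lay between 0.49 and 0.71, its sign being fixed because the groups do not overlap. The adjusted p of acy-4 from limma over 13 alternatives lay between 0.105 and 0.54. Markers of the germline, which the sheath cells enclose, had a positive difference in 9 of 9 genes, with a median of 0.18 and 0 called. The median level of that marker list was 9.63 to 9.81 on the lethargus arrays and 9.14 to 9.68 on the L3 arrays, and 1 of the 9 had a mean below the highest background control. No list of sheath cell markers was read, and the part of these cells in the acy-4 reading was not tested.

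For acy-1, the adenylyl cyclase that acts with the stimulatory G protein in worm neurons and muscle, the probe set read 8.86, 9.02 and 9.39 in lethargus, against 8.47, 8.83 and 8.88 in L3. The groups overlapped by 0.02, with lethargus replicate 1 just below L3 replicate 3. The difference was 0.37 (SE 0.18, interval -0.07 to 0.80), with an adjusted p of 0.598. It was 0.22 without lethargus replicate 3 and 0.24 without L3 replicate 1. The probe set, 191633_s_at, is the only one for the gene and is marked as able to match other transcripts.

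The phosphodiesterase gene pde-4, whose product breaks down cAMP, was among the least variable members. Its brighter probe set read 9.16, 9.41 and 9.23 in lethargus, against 9.25, 9.15 and 9.17 in L3, a difference of 0.08 (interval -0.21 to 0.36). The dimmer one, 194175_x_at, read 8.73, 8.48 and 8.46 in lethargus, against 8.46, 8.33 and 8.47 in L3, a difference of 0.13 (interval -0.17 to 0.44). Both overlapped between stages, and their upper limits correspond to 1.29- and 1.36-fold.

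Both subunit genes of PKA gave probe sets on either side of 0. Of the 5 probe sets of kin-1, the catalytic subunit gene with 14 RefSeq transcripts, 2 had positive and 3 negative differences, from -0.12 to 0.11. The brightest, 193414_s_at, read 9.82, 9.91 and 9.79 in lethargus, against 9.94, 9.67 and 10.06 in L3, a difference of -0.05 (interval -0.38 to 0.28) that became 0.04 without L3 replicate 3. The 3 probe sets of kin-2, the regulatory subunit gene, are all marked as able to match other transcripts. Its brightest, 175562_s_at, read 9.92, 9.29 and 9.22 in lethargus, against 9.47, 9.41 and 9.12 in L3, a difference of 0.14 (interval -0.35 to 0.64), where lethargus replicate 1 alone stood above the L3 range. The other kin-2 probe sets differed by 0.02 and -0.17, and no kin-1 or kin-2 probe set separated the stages.

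The gene crh-1, which encodes the worm CREB, had the largest positive difference after acy-4, on the brighter of its probe sets. That probe set, 189423_s_at, read 10.99, 11.04 and 10.46 in lethargus, against 10.05, 10.28 and 10.59 in L3. The stages overlapped in a single place: lethargus replicate 3 lay below L3 replicate 3. The mean was 10.83 ± 0.32 in lethargus and 10.31 ± 0.27 in L3 (SD, n = 3 each), a difference of 0.52 (SE 0.21) or 1.44-fold, with an unadjusted p of 0.0387 and an adjusted p of 0.429 from limma. The difference was 0.66 without L3 replicate 3 (adjusted p 0.163) and 0.71 without lethargus replicate 3 (adjusted p 0.225). The other probe set, 181128_at, no brighter than those controls on any array, read 4.48 to 4.76 in lethargus and 4.38 to 4.47 in L3 and carries no information on the size of a change. The gene has 7 RefSeq transcripts, and which of them each probe set reads is not given in the annotation used here.

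**Figure D2:**
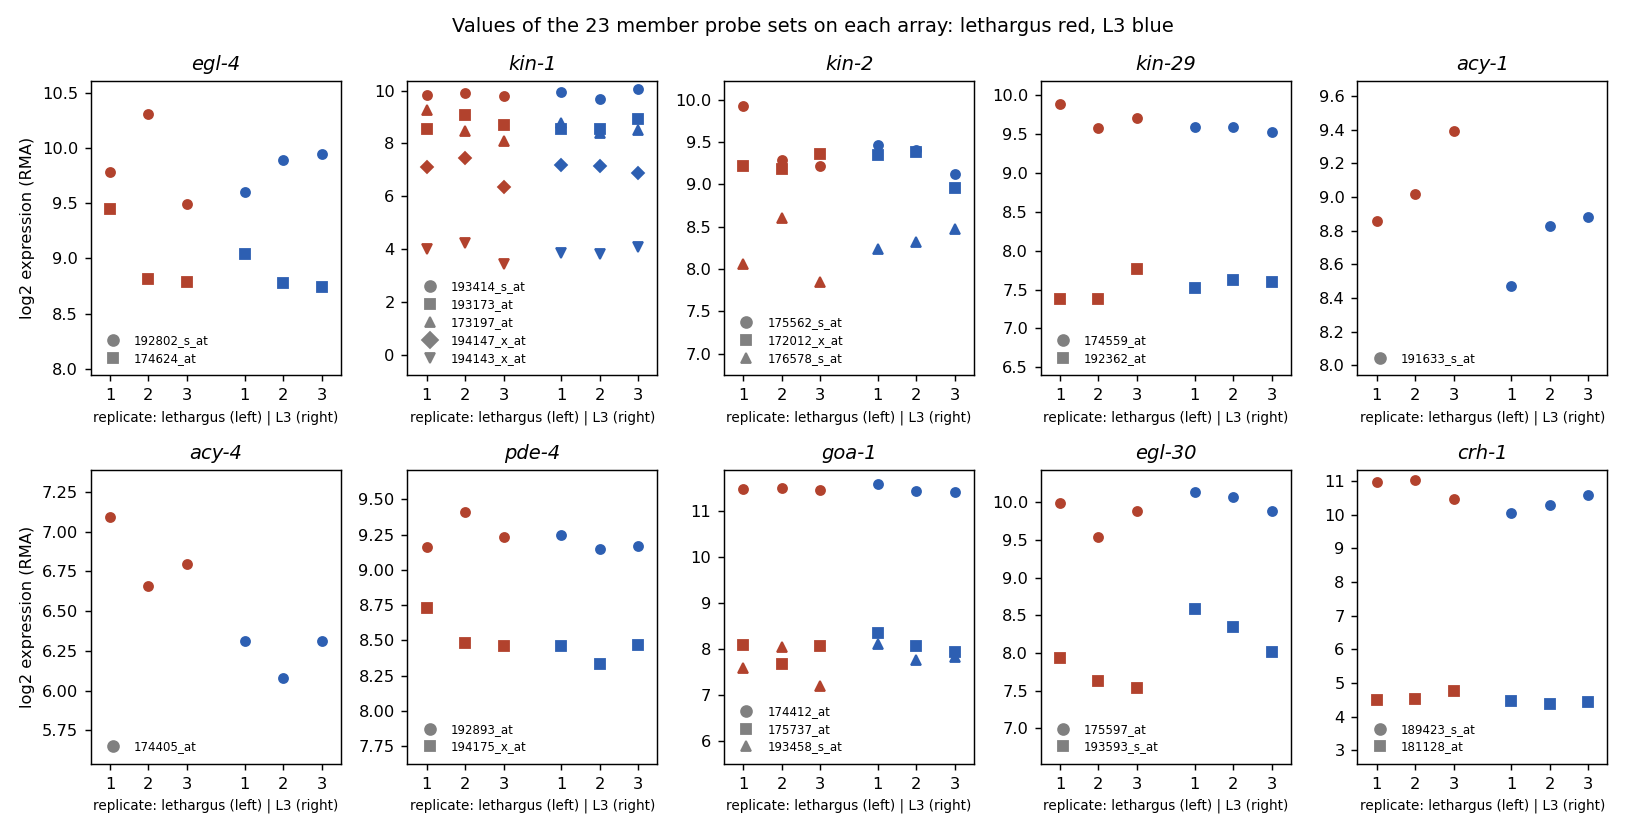
Log2 expression of each probe set (marker shape) of the 10 genes, a panel per gene, on the 3 lethargus arrays (red, left) and the 3 L3 arrays (blue, right). In acy-4 and in the dimmer probe set of egl-30 the stages do not overlap, and in goa-1 the brightest probe set stays between 11.42 and 11.60 on all 6 arrays.

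Neither G-alpha gene was called. The Gq gene egl-30, whose product promotes acetylcholine release and movement, had negative differences on both of its probe sets. On the dimmer one, 193593_s_at, the arrays read 7.94, 7.63 and 7.53 in lethargus, against 8.58, 8.34 and 8.02 in L3. All lethargus arrays lay below all L3 arrays, by a gap of 0.07 next to L3 replicate 3. The difference was -0.61 (SE 0.19), a level in lethargus 0.654 times that in L3, with an unadjusted p of 0.0124 and an adjusted p of 0.258 from limma. Without L3 replicate 3 it was -0.76 with an adjusted p of 0.0641, the lowest over 12 alternatives, and no alternative called it.

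On its brighter probe set, 175597_at, egl-30 read 9.99, 9.54 and 9.88 in lethargus, against 10.13, 10.07 and 9.88 in L3. Here the stages overlapped, and the difference was -0.22 (interval -0.59 to 0.14, adjusted p 0.78). The probe set that is not marked as able to match other transcripts thus showed the smaller difference. Averaged over both probe sets the gene differed by -0.42, with an adjusted p of 0.378 among genes.

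The Go gene goa-1, whose product restrains transmitter release, was the most constant member on its brightest probe set. It read 11.48, 11.51 and 11.46 in lethargus, against 11.60, 11.43 and 11.42 in L3. The difference was 0.00 (SE 0.12, interval -0.27 to 0.28), and it changed sign, at no more than 0.03 in size, when arrays were centred on a common median or single arrays were left out. The dimmer probe sets 175737_at and 193458_s_at differed by -0.17 and -0.30 with overlapping stages, and 193458_s_at had its lowest reading, 7.20, on lethargus replicate 3. Averaged over its 3 probe sets goa-1 differed by -0.16, with an adjusted p of 0.828.

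Neither kinase that favours sleep was called. For egl-4, the cGMP-dependent protein kinase gene whose overactivity makes worms quiescent, the brighter probe set 192802_s_at read 9.78, 10.31 and 9.49 in lethargus, against 9.60, 9.89 and 9.95 in L3. The lethargus arrays reached both above and below the L3 arrays, and the difference was 0.05 (SE 0.22, interval -0.47 to 0.57, adjusted p 0.986). The dimmer probe set 174624_at, not marked as able to match other transcripts, read 9.45, 8.81 and 8.79 in lethargus, against 9.04, 8.78 and 8.74 in L3, a difference of 0.16 (interval -0.32 to 0.65, adjusted p 0.917). The upper limits of both correspond to 1.48- and 1.56-fold. Lethargus replicate 2 was highest on the first probe set and replicate 1 on the second, and over the 6 arrays the readings did not run together (Pearson r = -0.23).

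For kin-29, the salt-inducible kinase relative that acts in sensory neurons, both probe sets are unmarked and the L3 arrays were nearly identical. The brighter one read 9.88, 9.57 and 9.70 in lethargus, against 9.59, 9.59 and 9.53 in L3, a difference of 0.14 (SE 0.13, interval -0.15 to 0.44, adjusted p 0.853). Only 0.02 separated lethargus replicate 2 from lying above all L3 arrays. The dimmer one, 192362_at, read 7.38, 7.38 and 7.77 in lethargus, against 7.52, 7.62 and 7.60 in L3, a difference of -0.07 (interval -0.41 to 0.27). The brighter probe set kept a positive sign over 12 alternatives, from 0.06 to 0.22, and the mean of both probe sets differed by 0.04. The dimmer one ran from -0.20 to -0.00 over 12, and was -0.00 without lethargus replicate 1 and also without lethargus replicate 2.

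Groups did not overlap in 3 of the 23 probe sets, or 13%, beside 14.4% of all probe sets (7.81% with lethargus above and 6.57% with lethargus below). They were acy-4 and the dim probe set of crh-1 with lethargus above, and 193593_s_at of egl-30 with lethargus below. The differences with an array left out are shown for the 4 probe sets with the largest sizes. In none of these 4 did leaving out an array turn the direction. For acy-4 and 193593_s_at of egl-30, whose stages do not overlap, it could not have turned. All 4 were picked by size on these same arrays.

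**Figure D3:**
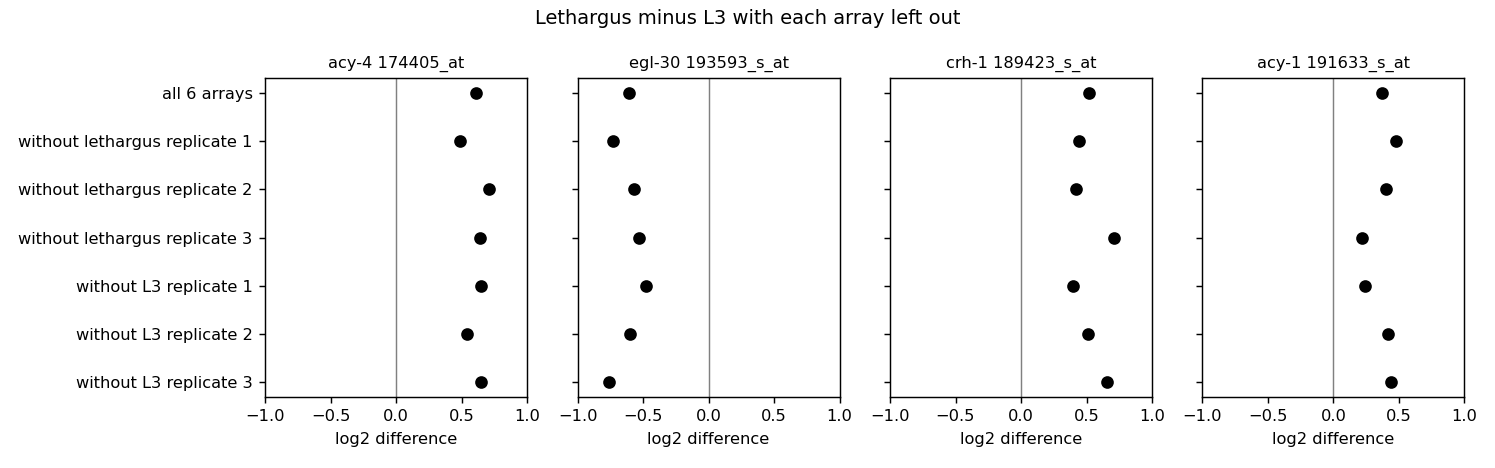
Log2 difference, lethargus minus L3, with all 6 arrays and with each array left out in turn (rows), for the 4 member probe sets with the largest differences (panels). Values stay between 0.49 and 0.71 for acy-4, between -0.76 and -0.48 for egl-30, between 0.40 and 0.71 for crh-1, and between 0.22 and 0.48 for acy-1.

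Most members had a wider spread among the lethargus pools than among the L3 pools. The standard deviation was larger in lethargus in 19 of 23 probe sets, or 82.6%, beside 54.7% of all probe sets, and its median was 0.23 in lethargus and 0.17 in L3, beside 0.19 and 0.17 over all probe sets. Probe sets of a gene share their source and are not independent, so this is a description. Lethargus replicate 3 gave the lowest lethargus reading in 13 of 23, beside 30% of all probe sets. The widest spread was that of 173197_at of kin-1, which read 9.26, 8.45 and 8.09 in lethargus and 8.78, 8.41 and 8.51 in L3. On lethargus replicate 3 the 3' reading minus the 5' reading, a measure that grows as RNA degrades, averaged 1.63 over 5 worm control transcripts, against 1.31 and 1.23 on the other lethargus arrays and 1.29 to 1.47 on the L3 arrays. For catalase it was 3.31 on that array, against 2.61 and 2.62 on the other lethargus arrays and 2.30 to 3.00 on the L3 arrays. For actin it was -0.01 there, against -0.34 to -0.14 on the other arrays, and for Gapdh -0.04, against -0.29 to -0.14. Ubiquitin was also highest there, at 4.62 against 4.29 to 4.58, while gly14, at 0.25, was higher on L3 replicate 2 (0.29). The part of RNA quality in these readings was not tested.

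Probe sets of the same gene did not always run together. Of 8 members with several probe sets, 4 (egl-4, pde-4, egl-30 and crh-1) had differences of a shared sign on all of them. Among 21 pairs of probe sets of a gene, 7 had a negative Pearson r over the 6 arrays. The closest pairs were 194147_x_at and 194143_x_at of kin-1, with r = 0.82, and both probe sets of egl-30, with r = 0.77.

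Markers of neurons, where most of these genes are studied, were not called. The median level of the 14 genes on the neuron list was 9.50 to 9.60 in lethargus and 9.17 to 9.65 in L3, lowest on L3 replicate 3. Of these genes 1 lay below the highest background control on every array, and not all are specific to neurons. For 7 body wall muscle markers it was 12.87 to 13.06 in lethargus and 12.76 to 12.87 in L3, and for 7 intestinal markers 9.09 to 9.37 in lethargus and 9.24 to 9.50 in L3, with 0 called on either list. For 4 pharyngeal muscle markers it was 10.14 to 10.72 in lethargus and 9.82 to 10.14 in L3, with 4 of 4 differences positive and 0 called. Their median difference was 0.51, and in 3 of the 4 every lethargus array lay above every L3 array, beside 7.81% of all probe sets. Of 7 epidermal markers 1 was called, the molting gene mlt-10 (-2.67, adjusted p 0.0421 from limma). Its call ended without any array other than L3 replicate 3 (0.0985 to 0.212) and with the replicate block (0.121). Differences on that list were split, 4 positive and 3 negative, with a median of 0.11. Beside mlt-10, the stages did not overlap for dpy-7 (-1.12), col-19 (0.59) and elt-1 (0.45), none of them called. The median level of the list was 7.90 to 8.73 in lethargus and 8.52 to 9.49 in L3. For 11 sperm markers measured of 13, of which 5 had means below the highest background control, it was 5.61 to 6.25 in lethargus and 5.25 to 6.56 in L3, highest on L3 replicate 3, with 0 called.

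Other genes of the same pathways were not called either. Of 113 genes on 7 lists of partners, 106 were measured and 0 were called in either direction, beside 0.967% of all probe sets. At an unadjusted p under 0.05 there were 7, or 6.6%, beside 10.6% of all probe sets, and the median difference was -0.01. Without L3 replicate 3 the count called was 2 of 106, the genes pkg-2 and rgs-7, beside 5.04% of all probe sets in that fit. That fit leaves out an array picked on these same values, so its calls are a description.

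On the list of other cGMP genes (24 of 25 measured), 16 of the 24 had means below the highest background control, so the list's median difference, 0.00 in size, says little. The smallest p was that of pkg-2, another cGMP-dependent protein kinase gene beside egl-4. It read 10.54, 10.30 and 10.60 in lethargus, against 9.73, 9.79 and 9.55 in L3. The stages did not overlap, with a mean of 10.48 ± 0.16 in lethargus and 9.69 ± 0.13 in L3 (SD, n = 3 each). The difference of 0.79 (SE 0.14, interval 0.46 to 1.11), or 1.73-fold, did not pass adjustment, with an adjusted p of 0.059 from limma. It was called without L3 replicate 3 (0.0475), with array weights (0.0447), with a variance trend (0.0348) and with dim probe sets left out (0.045), and not without any other array (0.115 to 0.232) or with the replicate block (0.226). Set beside egl-4, whose differences were 0.05 and 0.16, this is a comparison of different probe sets and was not tested.

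Among 30 measured of 34 effectors and regulators of Gq and Go, 15 had positive and 15 negative differences. The smallest p was that of rgs-7, which encodes a regulator of G-protein signalling and read 8.59, 8.63 and 8.79 in lethargus, against 7.94, 7.97 and 8.22 in L3. No lethargus reading fell within the L3 range. Its difference was 0.63 (SE 0.13, adjusted p 0.101 from limma), and it was called without L3 replicate 3 (0.72, adjusted p 0.0365) and with array weights (0.0499). It was not called without any other array (0.213 to 0.395), with the replicate block (0.218), with a variance trend (0.111) or with dim probe sets left out (0.0787).

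Of 19 other G-alpha genes, all measured, 13 had negative and 6 positive differences, with a median of -0.12 and none called. Here 14 of the 19 had means below the highest background control, where small changes are understated. The smallest p was that of gpa-7, at -0.51 (adjusted p 0.445), with 3 of 6 arrays at or below that control. Of 4 G-beta and G-gamma genes, gpb-2 had the smallest p, at -0.17 (adjusted p 0.772).

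The remaining lists held no call. Among 6 cAMP genes beyond the members, the adenylyl cyclase gene acy-3 had -0.47 (adjusted p 0.487), with every lethargus array below every L3 array. This was opposite in sign to acy-1 and acy-4, and the differences between these genes were not tested. Of 12 measured genes of the CREB list, the calcium/calmodulin-dependent kinase gene unc-43 had the smallest p, at -0.33 (adjusted p 0.466). The largest difference there, -1.41 for atf-2, a bZIP transcription factor gene named after its values were seen, had an SE of 0.90, since lethargus replicates read 4.26, 5.19 and 7.54 and L3 replicates 7.81, 7.76 and 5.64. It lay between -2.35 and -0.71 with an array left out. Of 12 partners of KIN-29 and EGL-4, the Smad gene sma-3 had the smallest p, at 0.46 (adjusted p 0.285), with the stages not overlapping.

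**Figure D4:**
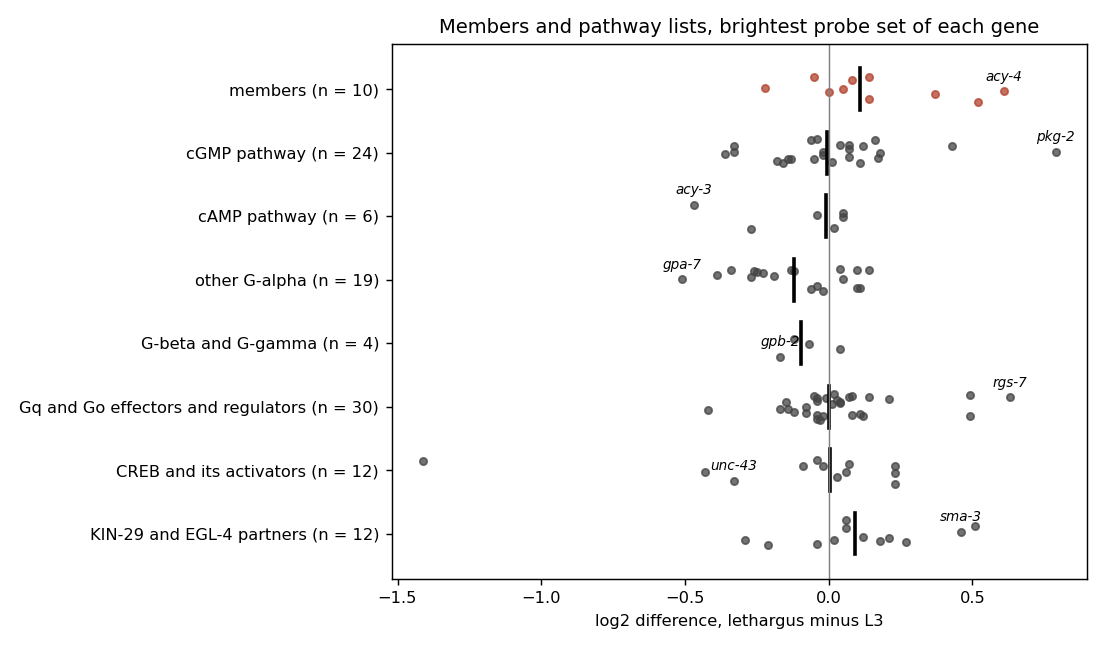
Log2 difference, lethargus minus L3, of the members (red) and of the genes on 7 pathway lists (grey), each gene by its brightest probe set, with the median of each list as a bar. The members lie between -0.22 and 0.61. The named genes are acy-4 and the gene with the smallest p on each list, pkg-2 reaching 0.79, and the point at -1.41 is atf-2.

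The genes whose readings were most like those of 3 members over the 6 arrays were sought among 13424 probe sets above background. Likeness over 6 arrays is a description and carries no p. For egl-4 (192802_s_at) they were Y48G1A.2, bed-1 and metl-5, with Pearson r of 0.999, 0.992 and 0.988 and Spearman rho of 1.00 each. For kin-29 (174559_at) they were xrep-4, epg-9 and C01G6.4, with r of 0.992, 0.989 and 0.987 and rho of 0.83, 0.94 and 0.83. For pde-4 (192893_at) they were ubq-2, C27D9.1 and F23H12.3, with r of 0.981, 0.965 and 0.956 and rho of 1.00, 0.71 and 0.89. None of these 9 genes was called, and their differences ran from 0.02 for Y48G1A.2 to 0.43 for epg-9. They were picked for likeness to members that were not called, so the absence of calls largely follows from that choice.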

How the data were processed

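Per the labels' protocols, total RNA of each pool was amplified with the Nugen Ovation system and hybridised to Affymetrix C. elegans arrays. Values in the deposited table are on the log2 scale and were made by the authors with RMA, per the submitters' processing notes, with its version and settings not given in the sources used here. 1 sample of each stage had been set aside for RNA quality, per the labels. No genome build is named, so no coordinates are given. Whether pools were raised on separate days is not stated, so p-values measure the spread between these pools.

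The 77 control probe sets were left out. Lethargus minus L3 was fitted with limma 3.58.1 under R 4.3.3 (lmFit, eBayes, stage as sole term) over 22548 probe sets, two-sided, with Benjamini-Hochberg adjustment. The authors' R/maanova was not run. The fit was checked on simulated data, where some of the known changes put in were not called, so a gene not called can still differ. No filter on low values was applied. The highest of 27 Bacillus subtilis control probe sets, 5.73 over all arrays, marked background, and 36.8% of tested probe sets had means below it. Genes were named where the annotation gave 1 symbol (20766 probe sets). List genes were taken by the brightest probe set. The text names all members, the called list genes or else the one with the smallest p, and the 3 probe sets most like egl-4, kin-29 and pde-4. The members and lists were chosen with earlier results of these data known. The 13 alternatives covered normalization, dim probe sets, spread model, array weights, a replicate block, averaging of probe sets and leaving out each array. Replicate numbers are shared between stages, but same-numbered arrays deviated with correlations of 0.264, -0.244 and -0.293, so no pairing was assumed.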

Additional observations from a re-analysis of the deposited data

How the results depend on the processing

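The count of members called was 0 under all 13 alternatives. The count over all probe sets, 218, was 493 with array weights and ran from 75 to 1136 with an array left out, the highest without L3 replicate 3. With the replicate number as a block it was 59, and the block called 0 members. The numbers do not pair the arrays: lethargus replicate 2 deviated most like L3 replicate 3. Over the pathway lists, with 0 called, the count was 1 with dim probe sets left out (pkg-2), 1 with a variance trend (pkg-2), 2 with array weights and 2 without L3 replicate 3 (pkg-2 and rgs-7), of 106 genes at most. Beside these, 1.54%, 1.16%, 2.19% and 5.04% of all probe sets were called in those fits, and the cause was not tested.

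Of 284 member values under the alternatives, 262 kept their direction and stayed not called, and 22 changed sign, on 10 of the 23 probe sets. With array weights 193414_s_at of kin-1 had 0.02, 194143_x_at of kin-1 had 0.09 and 172012_x_at of kin-2 had -0.05. With a common median 174412_at of goa-1 had -0.01. Averaged over probe sets, kin-2 had 0.00 and goa-1 had -0.16. With single arrays left out, egl-4 ran from -0.18 to 0.23 on 192802_s_at and from -0.05 to 0.28 on 174624_at. The kin-1 probe sets ran from -0.16 to 0.04 (193414_s_at), -0.05 to 0.24 (193173_at), -0.30 to 0.29 (173197_at), -0.36 to 0.20 (194147_x_at) and -0.21 to 0.19 (194143_x_at). Those of kin-2 ran from -0.08 to 0.27 (175562_s_at) and -0.11 to 0.10 (172012_x_at), and 174412_at of goa-1 from -0.03 to 0.06. The 3 arrays per stage limit all of these values.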
